A study of Rattus norvegicus with 12 samples.

Results

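Axon guidance ligands and receptors were followed in the rat inferior colliculus (IC), the auditory midbrain centre, after the loss of 1 ear. The 59 genes are the ephrins, Eph receptors, class 3 to 7 semaphorins, plexins, neuropilins, netrins, Dcc, Unc5 receptors, Slits and Robo receptors that had a probe listed with exactly 1 gene symbol, out of 18166 genes measured in this way. They comprise 31 ligands and 28 receptors. They were picked by a rule on gene names, and the choice was made with earlier results of these data known. Plxnb2 is not among them because its probe also lists a microRNA, and Unc50 and Unc5cl were left out as genes of other families with similar symbols. Efna3, Ephb4, Plxna1, Plxna4, Plxnb1, Plxnc1 and Sema6a were not analysed here.

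All animals were SD (Sprague-Dawley) rats. In the deaf arm 20 rats had the right cochlea ablated, and in the control arm 20 rats had a sham operation, an incision behind the ear with the bulla left undrilled; IC tissue of both arms was taken after 2 weeks. Left and right IC were measured separately, on 3 arrays each, which gave 4 groups: left control, left deaf, right control and right deaf. The left IC lies opposite the ablated ear, and the ascending auditory pathway to it is mostly crossed. The labels conflict: hippocampus stands in the title of the series and in the descriptions, which call the deaf rats a noise group, whereas sample titles, sources and tissue entries give the IC and single-sided deafness, which were used here. All 15 listed IC markers lay above the 25th percentile of gene brightness, but so did 9 of 11 measured forebrain and hippocampal markers (not Neurod6 and Tbr1). Since brightness differs between probes for reasons other than RNA, these ranks do not settle which tissue was measured. Neither pooling of rats on an array nor a common source of left and right arrays is stated. What the p-values weigh is thus only how far these arrays scatter, some of which may be technical.

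Values are log2 intensities, so that a difference of 1 is a doubling of brightness. A probe's brightness depends on its sequence as well as on RNA abundance, so levels are compared between groups for the same gene and not between genes. In bulk tissue, fewer cells of a type and less RNA per cell cannot be told apart. A gene counted as called at a limma p adjusted by Benjamini-Hochberg over all 18166 genes under 0.05.

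Guidance cues steer growing axons by attraction or repulsion, and many stay on in the adult brain, where they are known to act on synapses, glia and blood vessels. Ephrins sit on cell surfaces and bind Eph receptor tyrosine kinases; in the developing auditory midbrain this pair of families helps to order axons along the frequency map. Semaphorins signal through plexins, with neuropilins as co-receptors for most secreted class 3 members. Netrins bind Dcc, which mediates attraction, and Unc5 receptors, which mediate repulsion. Slits bind Robo receptors and keep axons from crossing the midline again.

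The available promoters of these genes had a higher median share of G and C than those of all measured genes, a gap that was not tested. RefSeq promoter windows of the GRCr8 assembly, 250 bases before the annotated start, were at hand for 45 of the 59 genes and for 14503 measured genes. Median GC content was 61.2% in the guidance genes and 56.8% in all measured genes, and 29 of the 45 guidance windows lay above the latter. The GC box GGGCGG, searched on both strands, was in 24 of the 45 windows (53.3%, against 45.4% of all). The TATA box letters TATAAA, on both strands, were in 0 of 45 windows, against 11.3% of all. The cAMP response element TGACGTCA was in 1 window (2.22%, against 2.23%), and the E-box CACGTG was in 3 (6.67%, against 6.87%). A match is a description of letters and not of a bound site. Member windows ran from 35.2% to 83.2% GC. Efna2 and Sema6d had the smallest unadjusted p of the members in the left and the right IC. Their windows, both above the members' median in GC, are shown. They are read 5′ to 3′ on the gene's strand, with GC boxes of either orientation in capitals. The Efna2 window is at chr7:10177720-10177969 on the minus strand, with 77.2% GC and 3 GC boxes, and the Sema6d window at chr3:132337106-132337355 on the plus strand, with 70.4% GC and 4 GC boxes that partly overlap. The Sema6d window lies before a start inside the gene's annotated span, so the gene has a start further upstream.
Efna2: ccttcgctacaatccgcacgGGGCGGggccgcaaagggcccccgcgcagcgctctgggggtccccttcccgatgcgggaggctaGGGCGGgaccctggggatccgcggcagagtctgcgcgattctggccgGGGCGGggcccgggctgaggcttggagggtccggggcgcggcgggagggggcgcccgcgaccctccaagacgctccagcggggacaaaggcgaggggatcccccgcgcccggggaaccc
Sema6d: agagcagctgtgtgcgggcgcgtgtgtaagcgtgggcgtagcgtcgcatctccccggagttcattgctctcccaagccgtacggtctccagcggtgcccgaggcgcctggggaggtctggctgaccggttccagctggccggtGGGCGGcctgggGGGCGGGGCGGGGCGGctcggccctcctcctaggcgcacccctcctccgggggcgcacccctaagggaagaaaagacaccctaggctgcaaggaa

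No guidance gene differed between deaf and control rats by the adjusted test. Of the 59 members 0 were called in the left IC, 0 in the right IC and 0 in the mean of both sides, as were 0 of all genes (0%). This also held for left against right in control rats, left against right in deaf rats, and the interaction of side and deafness. At an unadjusted limma p under 0.05 there were 2 members in the left IC (3.39%), where 3.69% of all genes passed, and 5 in the right IC (8.47%), where 4.31% did. With each array left out these counts ran from 1 (without left control 3 or left deaf 2) to 5 (without right control 3) on the left, and on the right from 2 (without right control 1 or 2, or right deaf 1 or 3) to 7 (without right control 3). For the mean of both sides there were 4 members (6.78%, against 4.53% of all genes). Left and right differed at this unadjusted limit for 1 member in control rats (1.69%, against 4.95%) and 1 in deaf rats (1.69%, against 3.34%). For the interaction there were 0 members, against 3.42% of all genes.

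Intervals bounded the differences only relative to the scatter of these arrays, some of which may be technical. The 95% interval of limma, which is not adjusted for the number of genes, lay within 2-fold in either direction for all 59 members in all 6 comparisons (94.2% to 99.9% of all genes). It lay within 1.5-fold for 56 members in the left IC (94.9%, against 87.4% of all genes) and for all 59 in the right IC (against 87.2%). The left exceptions were Sema3c, with an interval from -0.69 to 0.08, Ntn4, from -0.65 to 0.02, and Epha8, from 0.03 to 0.62. For the interaction, which combines all 4 groups, 47 of the 59 intervals were within 1.5-fold (79.7%, against 64.0% of all genes).

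**Figure D1:**
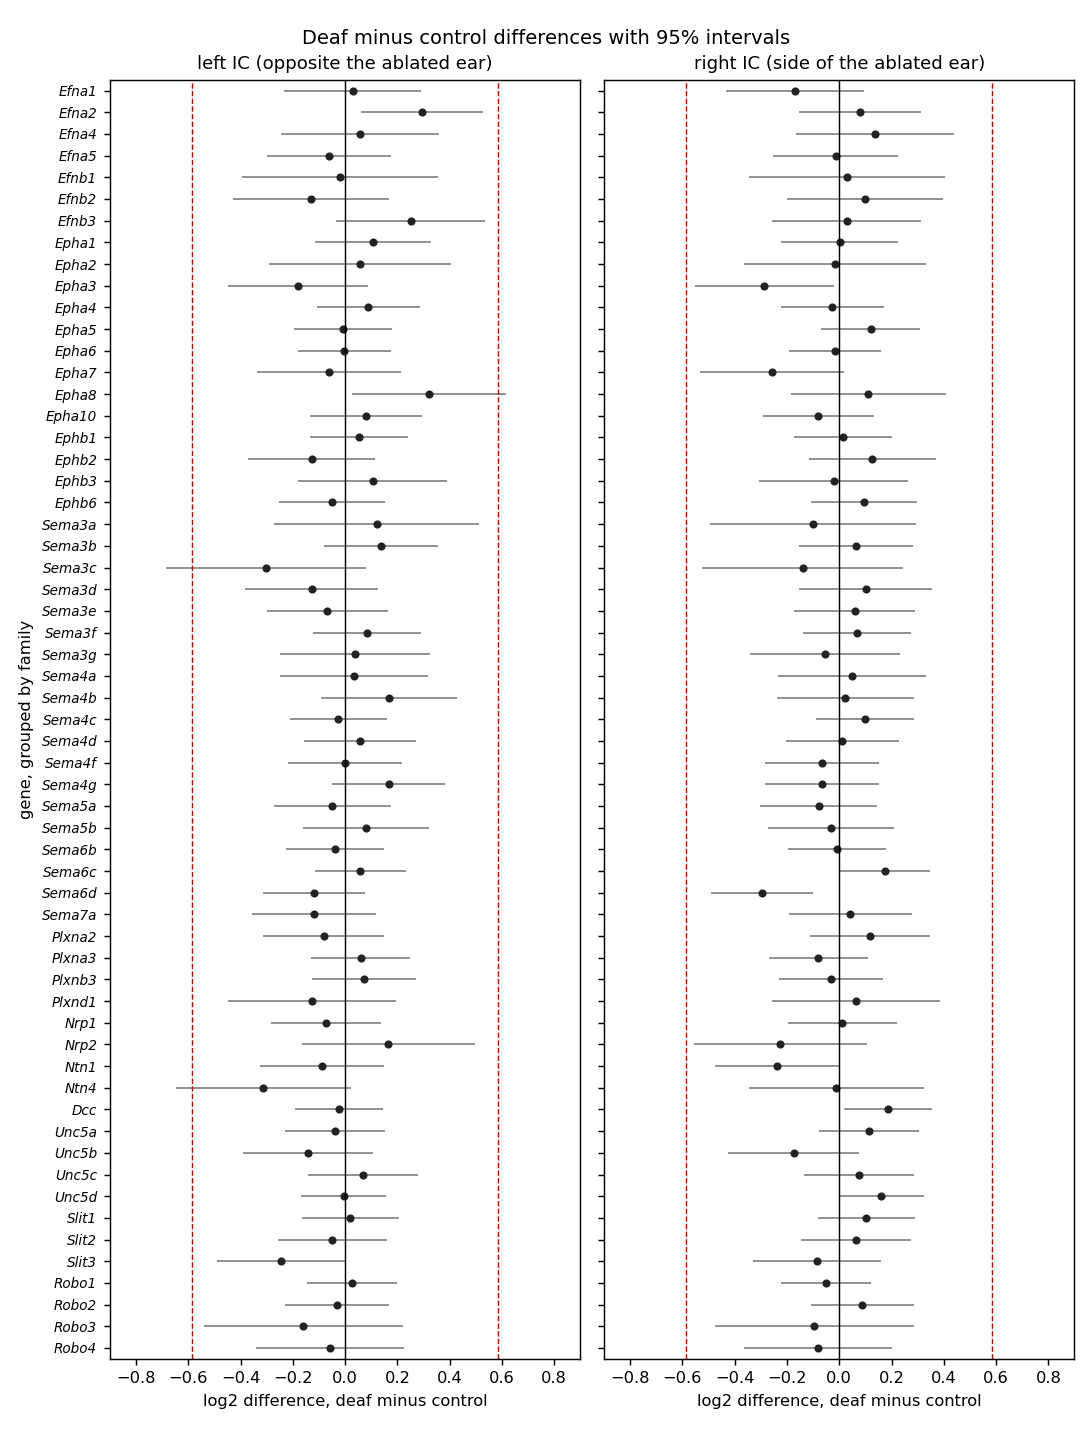
Log2 difference of deaf minus control for the 59 guidance genes, in the left IC and in the right IC. Points are differences of the means of 3 arrays against 3, grey lines are 95% limma intervals without adjustment, and red dashed lines mark 1.5-fold; only Sema3c, Ntn4 and Epha8, all on the left, have intervals that reach past a red line.

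Guidance genes were spread over the range of brightness, from Epha1 at 3.98 to Sema7a at 9.27 (means of 12 arrays), and 2 of the 59, Epha1 and Robo3, lay below the 25th percentile of genes. The 4 group means of a gene lay close together. The range of the 4 means was smallest for Sema6b, at 0.039, largest for Sema3c, at 0.43, and had a median of 0.15, against 0.17 for all genes. The residual SD between arrays of a group had a median of 0.126 for members and 0.152 for all genes. It was smallest for Unc5d, at 0.057, and largest for Sema3a, at 0.25. The highest of the 4 group means fell in left control for 16 members, right control for 16, left deaf for 14 and right deaf for 13.

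**Figure D2:**
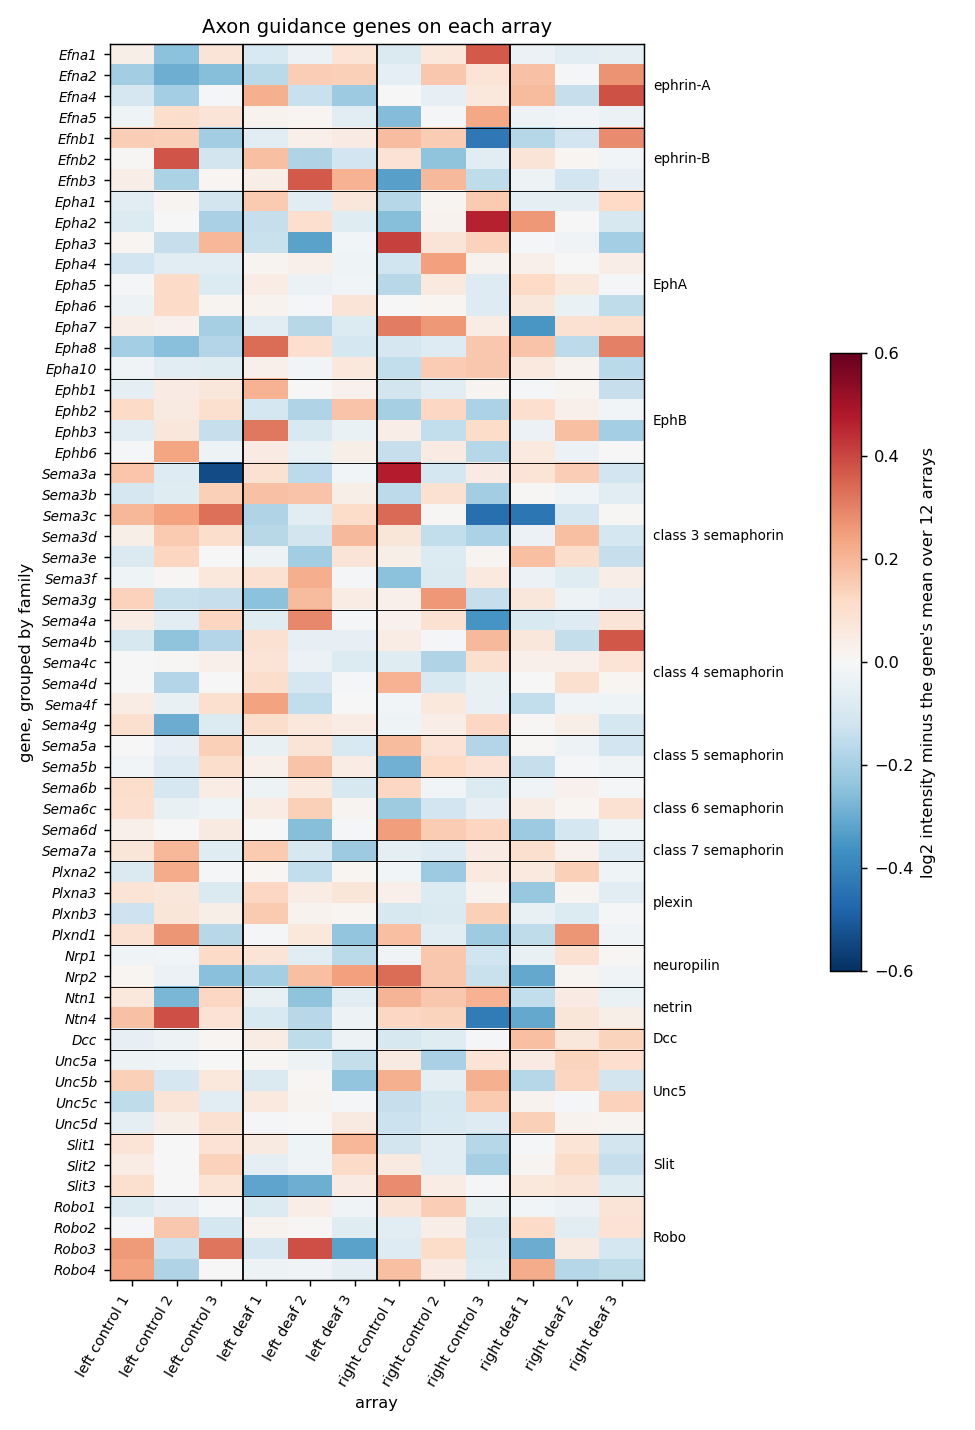
Log2 intensity of each guidance gene on each of the 12 arrays, minus that gene's mean over the 12 arrays. Rows are genes grouped by family, columns are arrays grouped by side and treatment, red is above and blue below the gene's mean; single arrays such as left control 3 for Sema3a stand out more than whole groups do.

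Among ephrins and Eph receptors, the left IC gave the highest deaf values relative to control. Efna2, which encodes a membrane-anchored ephrin-A ligand, was at 5.81, 5.73 and 5.77 in left control and at 5.86, 6.17 and 6.16 in left deaf. All 3 deaf arrays lay above all 3 controls, the first by little. The difference was 0.29 (SE 0.107; limma unadjusted p = 0.0177, adjusted p = 1.00), or 1.23-fold. On the right, Efna2 was at 5.97, 6.18 and 6.10 in control and at 6.20, 6.01 and 6.29 in deaf rats, and these arrays overlapped (0.08, SE 0.107). Left control was therefore the low group and the other three groups lay together. Left minus right in control rats was -0.32 (SE 0.107; limma unadjusted p = 0.0120, adjusted p = 0.934), with no overlap, and no other member had an unadjusted p under 0.05 in that comparison.

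Epha8, an EphA receptor, had the same arrangement. Its arrays were at 5.89, 5.84 and 5.92 in left control, 6.43, 6.19 and 5.99 in left deaf, 5.99, 6.01 and 6.25 in right control and 6.26, 5.94 and 6.39 in right deaf. Left control was again lowest and did not overlap with left deaf, whereas the right groups overlapped. The left difference was 0.32 (SE 0.136; limma unadjusted p = 0.0356), the highest of any member, and 0.21 without left deaf 1. The right difference was 0.11 (SE 0.136). Efnb3, an ephrin-B ligand, was at 6.74, 6.50 and 6.71 in left control and at 6.73, 7.06 and 6.90 in left deaf. These groups touched, because left deaf 1 lay just under left control 1, and the difference was 0.25 (SE 0.130; limma unadjusted p = 0.0785).

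Epha3, a receptor for ephrin-A ligands, had lower deaf means on both sides. Its arrays were at 5.59, 5.26 and 5.32 in right control and at 5.18, 5.16 and 4.98 in right deaf. The right groups did not overlap, and the difference was -0.29 (SE 0.122; limma unadjusted p = 0.0376), which came to -0.19 without right control 1. On the left Epha3 was at 5.19, 5.04 and 5.38 in control and 5.05, 4.86 and 5.17 in deaf rats, which overlapped (-0.18, SE 0.122), and the left difference was -0.097 without left deaf 2 and -0.091 without left control 3. Epha7, another EphA receptor, was at 6.11, 6.07 and 5.85 in right control and 5.46, 5.90 and 5.90 in right deaf, with overlap and a difference of -0.26 (SE 0.127; limma unadjusted p = 0.0648). It was at -0.11 without right deaf 1.

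The Eph system had no common direction. In the left IC 5 of 9 EphA receptors, 2 of 4 EphB receptors, 3 of 4 ephrin-A and 1 of 3 ephrin-B genes had higher means in deaf rats. In the right IC these counts were 3 of 9, 3 of 4, 2 of 4 and 3 of 3. Epha4, Epha5 and Epha6, receptors with a wide pattern in adult brain, had left differences of 0.09 (SE 0.0906), -0.0081 (SE 0.0862) and -0.0022 (SE 0.0809). Epha5 on the right was at 0.12 (SE 0.0862), or 0.067 without right control 1 and 0.18 without right control 2. Epha4 had no overlap on the left, with control arrays from 7.10 to 7.15 and deaf arrays from 7.19 to 7.24. For the interaction 8 of 9 EphA genes had a left deaf minus control difference above that on the right, with a family median of 0.11. The same groups enter left minus right in control rats, where 7 of 9 EphA genes were lower on the left (family median -0.13), so the 2 counts are not independent. Among EphB genes, Ephb2, a receptor for ephrin-B ligands, had the lowest interaction value, -0.25 (SE 0.157; limma unadjusted p = 0.131). Its differences were -0.13 on the left and 0.13 on the right. Without left deaf 2 the interaction was -0.18.

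Among the semaphorins Sema6d gave the smallest p of any guidance gene for deafness. Sema6d encodes a transmembrane semaphorin that binds class A plexins. In the right IC its arrays were at 8.59, 8.49 and 8.47 in control and at 8.12, 8.23 and 8.31 in deaf rats. The groups were apart, and the difference was -0.29 (SE 0.0895; limma unadjusted p = 0.00662, adjusted p = 1.00). Left arrays were at 8.37, 8.34 and 8.39 in control and 8.33, 8.08 and 8.33 in deaf rats. The left groups did not overlap either, but they nearly touched, and the difference was -0.12 (SE 0.0895). Without left deaf 2 it was -0.036. The right control arrays also lay above all left control arrays, with a left minus right difference of -0.15 (SE 0.0895) in control rats. Right control was thus the group that stood apart. For the mean of both sides the difference was -0.21 (SE 0.0633; limma unadjusted p = 0.00692, adjusted p = 0.998).

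Sema6d was the only member whose 6 deaf arrays all lay below, or all above, the 6 control arrays (1.69% of members, against 0.27% of all genes). The highest deaf array was at 8.33 and the lowest control at 8.34, a gap of 0.0037. With quantile normalization, or with each array centred on its median, the gap closed and 0 members were separated in this way. The other class 6 members were Sema6b, which had the smallest range of group means, and Sema6c. Sema6c was at 6.21, 6.31 and 6.38 in right control and 6.47, 6.44 and 6.52 in right deaf. These groups were apart, and the difference was 0.17 (SE 0.0790; limma unadjusted p = 0.0481). Sema6c on the left was at 6.53, 6.38 and 6.40 in control and 6.47, 6.57 and 6.44 in deaf rats, so that right control was the low group.

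Class 3 semaphorins, most of them secreted repellents, lay on both sides of 0, with 4 of 7 higher in deaf rats in the left IC and 4 of 7 in the right. Sema3c was at 6.001, 6.04 and 6.13 in left control and 5.62, 5.73 and 5.91 in left deaf, with no overlap. The difference was -0.30 (SE 0.176; limma unadjusted p = 0.112). Its SE pools all 4 groups, and the right arrays were widely spread, from 5.35 to 6.14 in control and from 5.37 to 5.81 in deaf rats. Sema3a, a chemorepellent that also sits in the matrix around inhibitory neurons, was at 5.66, 5.41 and 4.95 in left control and 5.58, 5.33 and 5.47 in left deaf. Left control 3 was the lowest of all 12 arrays, the groups overlapped, and the difference was 0.12 (SE 0.180). Sema3a and Sema3d are neighbours on the chromosome with no protein-coding gene between them in the reference, and their differences had opposite signs, 0.12 and -0.13 on the left and -0.10 and 0.10 on the right. Sema3b had a left difference of 0.14 (SE 0.0991), and 0.21 without left control 3.

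In class 4, transmembrane semaphorins with roles in neurons and in immune cells, 4 of 6 genes had higher deaf means on each side. Sema4b was at 5.99, 5.84 and 5.91 in left control and at 6.18, 6.04 and 6.04 in left deaf, without overlap, a difference of 0.17 (SE 0.120). It was at 6.13, 6.08 and 6.28 in right control, above all left control arrays, and left minus right in control rats was -0.25 (SE 0.120; limma unadjusted p = 0.0615). Sema4g had a left difference of 0.17 (SE 0.0996; limma unadjusted p = 0.121) and an interaction of 0.23 (SE 0.141). Without left control 2 these came to 0.065 and 0.13, and without left control 1 the left difference was 0.26. The class 5 genes Sema5a and Sema5b were at -0.05 and 0.08 in the left IC and at -0.08 and -0.03 in the right. Sema7a, a membrane-anchored semaphorin that signals through integrins and plexin C1, was at -0.12 (SE 0.108) in the left IC and 0.04 in the right.

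Of the semaphorin receptors, the plexins and Nrp1 differed less between deaf and control rats than Nrp2 did. The 4 plexins lay between -0.13 (Plxnd1) and 0.07 (Plxnb3) on the left and between -0.08 (Plxna3) and 0.12 (Plxna2) on the right. Plxna3, a plexin that works with neuropilins, was at 6.43, 6.34 and 6.37 in left deaf and 6.07, 6.32 and 6.24 in right deaf, so that the deaf sides were apart by 0.17 (SE 0.0866; limma unadjusted p = 0.0711), and by 0.10 without right deaf 1. The neuropilin Nrp2, a co-receptor for Sema3f, was at 5.96, 5.92 and 5.70 in left control, 5.75, 6.13 and 6.20 in left deaf, 6.29, 6.11 and 5.82 in right control and 5.64, 5.97 and 5.93 in right deaf. On each side the groups overlapped, and the differences were 0.17 (SE 0.152) on the left and -0.23 (SE 0.152) on the right. The right value came to -0.12 without right control 1 or without right deaf 1, and to -0.35 without right control 3. Its interaction of 0.39 (SE 0.215; limma unadjusted p = 0.0942, adjusted p = 1.00) was the highest of any member. Nrp1, the other neuropilin, was at -0.07 and 0.01.

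Both netrins had lower means in deaf rats on both sides. Ntn1, the founding netrin, was at 6.01, 5.97 and 6.01 in right control and 5.66, 5.85 and 5.77 in right deaf, with no overlap. The difference was -0.24 (SE 0.109; limma unadjusted p = 0.0487). In the left IC it was at 5.87, 5.53 and 5.93 in control and 5.76, 5.56 and 5.74 in deaf rats, which overlapped (-0.09, SE 0.109). Right control stood above the left control arrays too, by 0.22 (left minus right -0.22, SE 0.109; limma unadjusted p = 0.0623). Without left control 2 this came to -0.10. Ntn4, a netrin of basement membranes, was at 6.32, 6.53 and 6.23 in left control and 6.05, 5.98 and 6.11 in left deaf. The left groups were apart (-0.31, SE 0.153; limma unadjusted p = 0.0646), whereas the right difference was -0.01 (SE 0.153). Left minus right for Ntn4 in control rats was 0.27 (SE 0.153), and 0.088 without right control 3.

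The netrin receptors gave higher values in the right deaf IC for 4 of 5 genes. Dcc, the attractive receptor, was at 7.71, 7.74 and 7.80 in right control and 7.99, 7.88 and 7.94 in right deaf. The groups were apart, and the difference of 0.19 (SE 0.0771; limma unadjusted p = 0.0333) was the highest in the right IC. In the left IC Dcc was at 7.76, 7.78 and 7.82 in control and 7.85, 7.66 and 7.78 in deaf rats, so that right deaf was above the other three groups. Left minus right in deaf rats was -0.17 (SE 0.0771; limma unadjusted p = 0.0435), with no overlap, and -0.12 without left deaf 2. The interaction was -0.21 (SE 0.109; limma unadjusted p = 0.0795), so a difference between the sides was not shown.

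Unc5d, one of the repulsive receptors, was at 8.48, 8.51 and 8.53 in right control and 8.75, 8.63 and 8.62 in right deaf, again apart, by 0.16 (SE 0.0745; limma unadjusted p = 0.0535). Left arrays were at 8.55, 8.64 and 8.70 in control and 8.60, 8.61 and 8.66 in deaf rats, where deaf lay inside control. Unc5a had a right difference of 0.11 (SE 0.0878), which was 0.026 without right control 2, and Unc5c had one of 0.08 (SE 0.0965). Unc5b went the other way, at -0.14 (SE 0.115) left and -0.17 (SE 0.115) right. Single arrays moved these values, to between -0.076 (without left deaf 3) and -0.21 (without left control 2) on the left and between -0.11 (without right deaf 1) and -0.26 (without right deaf 2 or right control 2) on the right; without left control 1 the left value was -0.088. Its dimmer probe gave 0.13 and -0.03, so the left sign depends on the probe, and the mean of both probes gave -0.0043 on the left.

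Of the Slits, Slit3 was at 5.90, 5.80 and 5.88 in left control and 5.49, 5.51 and 5.85 in left deaf. Left deaf 3 lay inside the control range and the other left deaf arrays below it; the difference was -0.25 (SE 0.113; limma unadjusted p = 0.0506). On the right Slit3 was at -0.09 (SE 0.113). Slit1, which is made mainly in the nervous system, was at 7.59, 7.51 and 7.60 in left control and 7.40, 7.44 and 7.34 in right control. The control sides were apart by 0.17 (SE 0.0853; limma unadjusted p = 0.0664), and the deafness differences of Slit1 were 0.02 on the left and 0.10 on the right (0.055 without right deaf 2). Robo1 and Robo2, the main neuronal Slit receptors, were at 0.03 (SE 0.0787) and -0.03 (SE 0.0908) in the left IC and at -0.05 and 0.09 in the right. Robo3, which lets commissural axons cross the midline, was dim, and its 12 arrays ran from 3.98 to 4.69. Robo4, a receptor of blood vessels, was at -0.06 and -0.08.

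**Figure D3:**
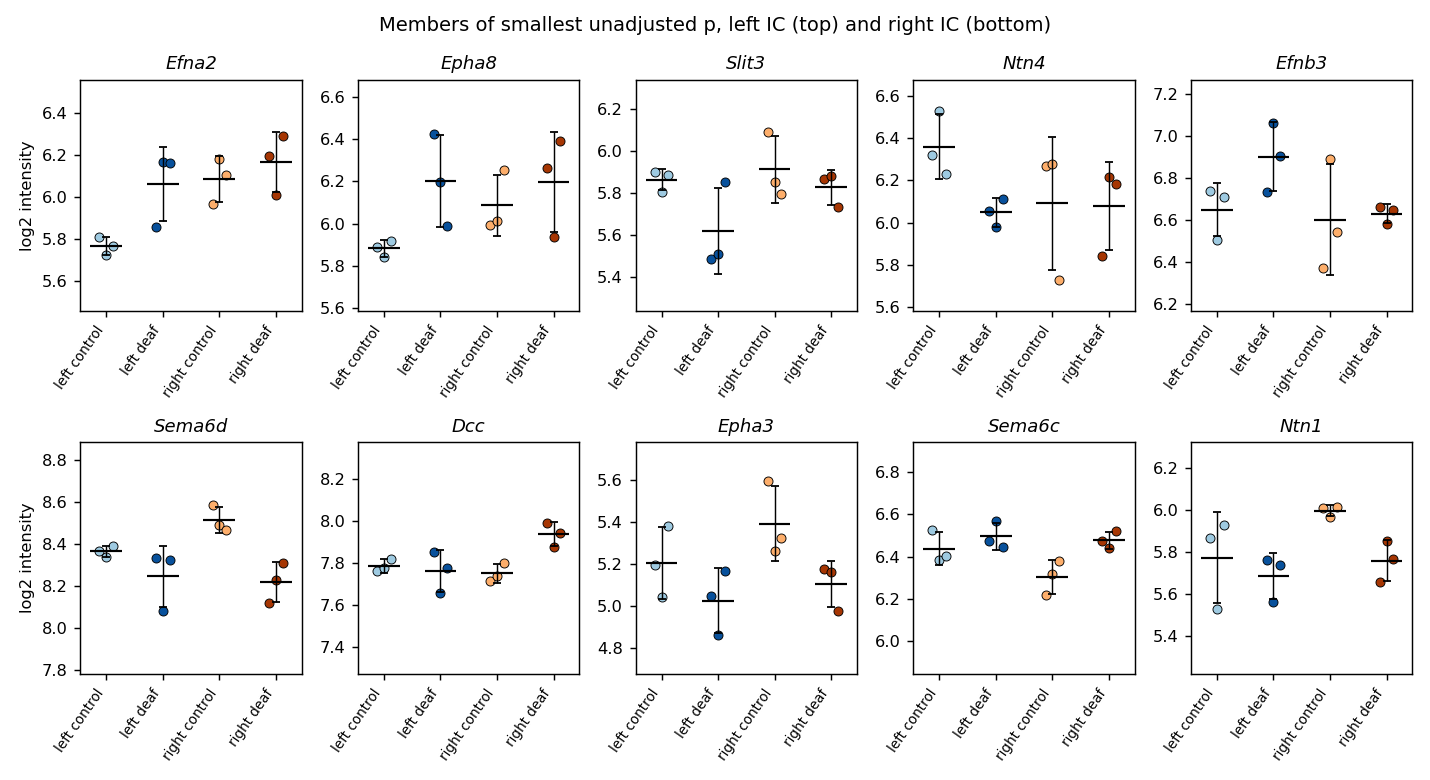
Log2 intensity on each array for Efna2, Epha8, Slit3, Ntn4 and Efnb3 (top, the 5 members of smallest unadjusted p in the left IC) and Sema6d, Dcc, Epha3, Sema6c and Ntn1 (bottom, those of the right IC). Points are arrays, horizontal lines are means and bars are SD over 3 arrays. Each panel spans the same 1.1 log2 units. Where a single group stands apart, it is left control for Efna2 and Epha8, right deaf for Dcc, and right control for Sema6d, Sema6c and Ntn1.

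Members whose groups were apart were counted beside the share among all genes, and the gap between the shares was not tested. The 3 arrays of each group did not overlap for 8 members in the left IC (13.6%, against 10.3% of all genes) and for 6 in the right IC (10.2%, against 7.48%). Between the sides they did not overlap for 9 members in control rats (15.3%, against 9.8%) and 8 in deaf rats (13.6%, against 8.31%). The members' median difference was -0.0056 on the left, where the median of all genes was -0.0051, and 0.012 on the right, where it was 0.0014. The medians of ligands and of receptors were -0.00046 and -0.0068 on the left and 0.024 and -0.0083 on the right, with no test of the gap between them. Differences over 0.3 in size were held by 3 members in the left IC (5.08%, against 4.80% of genes) and by 0 in the right (against 5.15%). Without right control 3 and left deaf 2 together, a choice made after the data were seen, the groups did not overlap for 15 members in the right IC (25.4%, against 18.8% of all genes under the same setting) and for 9 in the left (15.3%, against 19.9%), with 0 called. With 2 arrays against 3, groups separate more often than with 3 against 3.

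The wider guidance pathway gave 0 called genes as well. Of 22 other cues 20 were measured, and 8 had higher and 12 lower means in the left deaf IC, against 13 and 7 in the right. Ntn5, a netrin of the adult neurogenic niches, was at -0.23 on the left (SE 0.0846; limma unadjusted p = 0.0172), and Draxin, a netrin antagonist, at 0.19 on the right (SE 0.113). Of 29 co-receptors and adhesion partners 24 were measured, with 13 higher and 11 lower in left deaf, whereas the right IC had 5 higher and 19 lower (median -0.052, against 0.0014 for all genes). Among them the contactin Cntn4 was at 0.21 (SE 0.103), the Nogo receptor homologue Rtn4rl2 at -0.32 (SE 0.172) and the p75 neurotrophin receptor Ngfr at -0.30 (SE 0.194) on the right. Of 53 signalling genes that act inside the growth cone 49 were measured, with 23 higher and 26 lower in left deaf, and in right deaf 31 and 18. The actin regulator Vasp was at 0.28 on the left (SE 0.133; limma unadjusted p = 0.0579). Ablim3, an actin-binding protein gene, was at -0.18 in the left IC and 0.18 in the right (SE 0.0972).

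Markers of neighbouring tissue and other cell types were scored on each array. A score is the mean of the gene-centred log2 values of a list on an array. The 59 guidance genes had scores from -0.015 to 0.016 over the 12 arrays; genes of opposite deviation cancel in such a mean. The 18 measured cerebellar markers had scores of 0.21, 0.054 and 0.52 in right control, against -0.13 to -0.11 in right deaf, -0.080 to -0.026 in left control and -0.17 to -0.017 in left deaf; 16 of the 18 were lower in right deaf than in right control. The 14 measured myelin markers were all lower in right deaf (median difference -0.096), with scores of 0.019 to 0.13 in right control and -0.083 to 0.0097 in right deaf. Forebrain and hippocampal markers were also high in right control, with scores of 0.059 to 0.21, against -0.11 to 0.073 in right deaf, -0.11 to -0.0048 in left control and -0.053 to -0.025 in left deaf; 9 of 11 were lower in right deaf than in right control. Scores in right control and right deaf were 0.12 to 0.23 and -0.10 to 0.078 for the 3 blood markers, and 0.058 to 0.12 and -0.12 to 0.12 for the 9 microglial markers. Choroid and ependymal markers went the other way, with scores of -0.25 to 0.0013 in right control and -0.030 to 0.17 in right deaf. Of these, 9 were higher and 2 lower in right deaf. Neuron markers (9 higher, 3 lower) and IC markers (9 higher, 6 lower) also leaned upward. Astrocyte markers (1 higher, 8 lower) and endothelial markers (3 higher, 7 lower) leaned downward.

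Right control held the highest group mean for 16 members (27.1%, against 28.2% of all genes), among them Sema6d, Ntn1, Epha3 and Epha7. It held the lowest for 19 (32.2%, against 27.4% of all genes), among them Sema6c, Dcc, Unc5d and Slit1. Whether members and scores move together over the arrays was not tested. Right control 3 was the array of the highest cerebellar score. Without it the right differences were -0.32 for Sema6d and for Epha3, -0.23 for Ntn1 and 0.21 for Sema6c, of similar size or larger. Others shrank, Slit1 from 0.10 to 0.076 and Unc5b from -0.17 to -0.13. The right Epha3 difference was -0.19 without right control 1. The part of the other right control arrays' cerebellar score, and of the other marker lists, was not tested. In the left IC 18 of 19 measured meningeal and fibroblast markers had higher deaf means (median 0.22), with scores of 0.56 on left deaf 2, -0.15 to -0.067 on the other left deaf arrays and -0.38 to 0.12 in left control. Without left deaf 2, Efna2 was at 0.24, Epha8 at 0.33, Ntn4 at -0.28, Sema3c at -0.29 and Efnb3 at 0.17 on the left.

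**Figure D4:**
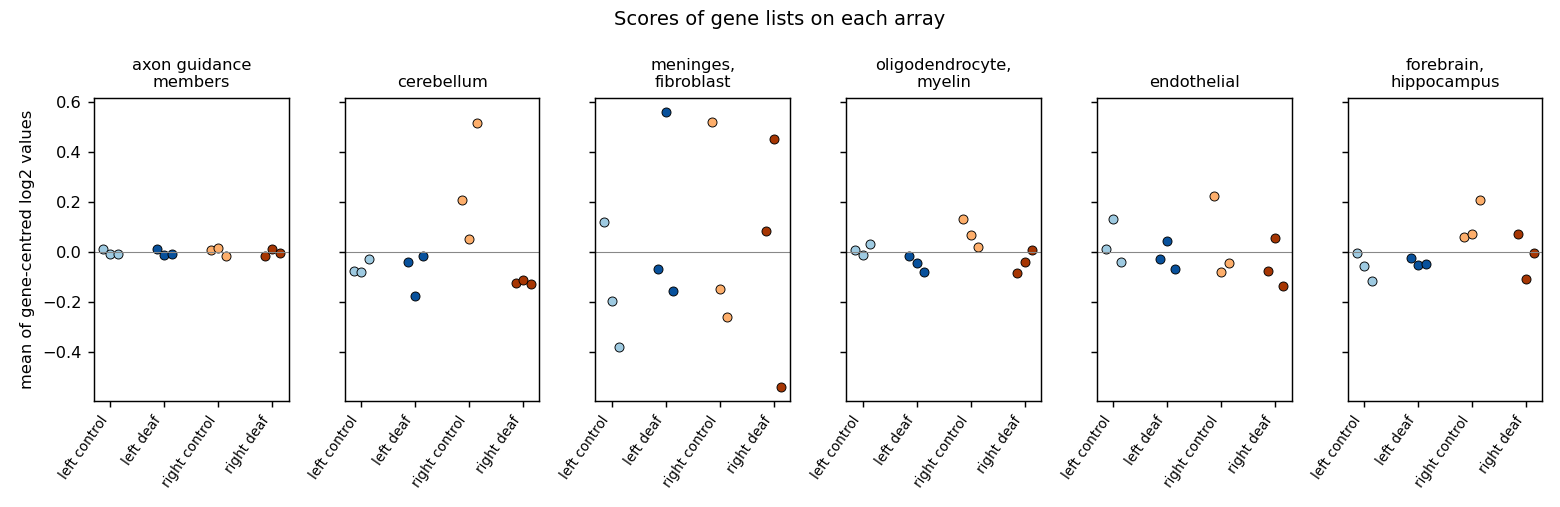
Mean of gene-centred log2 values on each array for the 59 guidance genes and for marker lists of cerebellum, meninges and fibroblasts, oligodendrocytes and myelin, endothelium, and forebrain with hippocampus. Each point is 1 array, grouped by side and treatment; guidance scores lie between -0.015 and 0.016, whereas the cerebellar score reaches 0.52 on right control 3 and the meningeal score 0.56 on left deaf 2.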

How the data were processed

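Per the labels, total RNA gave single-stranded cDNA that was fragmented and biotin-labelled with an Affymetrix reagent, 1 colour per array. Array model and normalization method were not given in the sources used here. Values as deposited are log2 intensities, put on a common scale by the authors: the median is 5.34 on each of the 12 arrays, and arrays differ by at most 0.0995 at a rank. Of 29489 probes, 18511 list 1 gene symbol, 575 several and 10403 none. The brightest probe per gene was kept (18166 genes; 291 had more than 1 probe, 2 of them members, Sema4d and Unc5b). No filter on dim genes was applied. Entrez identifiers of 58 members matched the reference, and 0 symbols changed.

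limma 3.58.1 in R 4.3.3 was fitted with 4 group means over all 12 arrays (8 residual and 3.79 prior degrees of freedom). Tests were two-sided, with Benjamini-Hochberg adjustment over all genes of a comparison and a threshold of 0.05. An exact permutation test of 3 arrays against 3 cannot go below p = 0.1. Named members are those of smallest unadjusted p, up to 6 each way where deaf is set against control within a side and up to 3 in the other comparisons, with the ends of each family; from each pathway list, genes were taken from the 3 of smallest p. Epha4, Epha5, Epha6 and the neighbours Sema3a and Sema3d were added after their values were seen. Members and lists were chosen with earlier results of these data known.

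Arrays of the same replicate number were checked for pairing. Deviations from group means correlated from -0.19 to 0.16 over 18 pairs, with 3 over 0.1. Only the 6 left-right pairs within an arm could share rats, and these ran from -0.056 to 0.15. Pairs of different numbers ran from -0.24 to 0.34. The numbers were not taken as pairs, but pairing was not excluded. The alternatives were quantile normalization, median centring, genes above the median level, averaged probes, robust estimation with a variance trend, array weights, only the groups compared, a replicate block, a wider symbol rule, and leaving out each array. Correlations between arrays were 0.982 to 0.993. Right control 3 lay farthest out on the first principal component. The number of arrays limits the precision.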

Additional observations from a re-analysis of the deposited data

How the results depend on the processing

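The count of 0 called members held in all 6 comparisons under each alternative that could be fitted, with each array left out, and with Unc50 and Unc5cl counted as members (61 genes). None of the 48 differences named for a gene changed sign over 982 recomputed values, though Unc5b on the left came to -0.0043 with the mean of its probes. These 48 were picked for a small p in the same data. Many of the 982 values could not differ from the main ones. Leaving out an array outside the comparison, the variance trend and the replicate block all keep a difference as it was. The count therefore says little about stability. With the replicate block, 0 members were called in each comparison. The medians (-0.0056 left, 0.012 right) could not move under it, because every group holds the same replicate numbers. The unadjusted limma p was then under 0.05 for 2 members on the left and 3 on the right, against 2 and 5. The members' median difference is near 0. It moved by more than its spread between arrays (SD 0.016) under 7 of 20 settings for the interaction, 6 of them with the other sign, under 3 of 21 for left minus right in control rats, 2 of 21 on the right and 1 of 21 on the left. Over genes above the median level it was 0.046 on the right and -0.022 for the interaction, with 40 members left. With array weights it was 0.0092 for left minus right in control rats. With each array left out it ran from -0.022 to 0.0067 on the left, from -0.014 to 0.017 on the right, from -0.0034 to 0.018 for the mean of both sides, from -0.00014 to 0.025 for left minus right in control rats, from -0.016 to -0.0048 in deaf rats and from -0.019 to 0.037 for the interaction. Members at an unadjusted p under 0.05 for the mean of both sides numbered from 1, without right control 1, to 8, without right control 3. Between the sides they numbered from 1 to 5 in control rats, highest without right control 1, and from 0 to 3 in deaf rats and for the interaction, highest without left deaf 1. The smallest adjusted p over all alternatives was 0.652 for Sema6d on the right, 0.771 for Efna2 on the left and 0.369 for Efna2 between the control sides.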
